A study of Mus musculus with 4 samples.

Results

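Pde4a, Pde4b, Pde4d, Pde3b, Pde7b and Pde2a encode 6 enzymes that break down cyclic AMP (cAMP). The rows of these 6 genes were taken by symbol from the 32285 genes counted in 4 droplet single-cell RNA libraries of mouse fracture callus, the repair tissue that forms around a broken bone. The libraries came from calluses of fractured tibiae of male C57BL/6J mice aged 20 months, all collected 7 days after treatment. In 2 libraries, adenosine 1 and adenosine 2, the callus had received a microgel loaded with adenosine. In the other 2, control 1 and control 2, it had received the same kind of microgel without adenosine. The cells of all 4 libraries were released by mincing with DNase I, treated to lyse red blood cells and sorted as viable by exclusion of propidium iodide, so the libraries hold the cells that came free in this procedure. The labels name the tissue both as fracture callus and as bone marrow, and bone-forming cells were almost absent: 37 of the 31280 cells kept had the markers of mesenchymal cells. Whether the libraries of 1 treatment stem from different animals is not stated, and the p-values below therefore refer to the variation among libraries, which may be technical.

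Extracellular adenosine acts on G protein-coupled receptors. The receptors encoded by Adora2a and Adora2b couple to the stimulatory G protein, which switches on adenylyl cyclase and raises cAMP inside the cell, and cAMP in turn activates protein kinase A and the exchange factors Epac. Phosphodiesterases end the signal by hydrolysing cAMP to AMP, and each cell type uses its own mixture of them. The enzymes of the PDE4 family (Pde4a, Pde4b, Pde4d) are specific for cAMP, are the main target of rolipram and related anti-inflammatory drugs, and are prominent in leukocytes. Pde7b encodes another cAMP-specific enzyme, which rolipram does not block. The enzyme encoded by Pde3b is inhibited by cyclic GMP and acts downstream of insulin in fat and liver cells. The enzyme encoded by Pde2a hydrolyses both cyclic nucleotides and is stimulated by cyclic GMP.

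All 6 genes are protein-coding. In the mouse build mm10 with the GENCODE M21 annotation, Pde4a lies on the plus strand at chr9:21165714-21213248, Pde4b on the plus strand at chr4:102087543-102607259 and Pde4d on the plus strand at chr13:108449948-109953461. Pde3b lies at chr7:114415281-114539251 and Pde2a at chr7:101421691-101512827, both on the plus strand, and Pde7b on the minus strand at chr10:20398004-20725078. No other gene of the deposited gene list overlaps any of them. Transcription of some phosphodiesterase genes is itself switched on by cAMP through the factor CREB, which binds the palindrome TGACGTCA or the shorter core TGACG, which reads CGTCA on the other strand. The promoters of 5 of the 6 genes were found in a RefSeq table of build GRCm38.p6, with 14 transcript starts in all; no promoter of Pde3b was matched. Within the 250 bases before each start, none of the 14 held the palindrome and 2 held the core, searched on both strands. Among 32851 promoters of the same length, 1.55% held the palindrome and 17.8% the core, and every palindrome contains the core. Those with the core, which belong to Pde4b and Pde4a, and the promoters of Pde4d and Pde7b, whose transcripts differed most between cell stages, are shown 5′ to 3′ on the strand of the gene, with the core in capitals.
Pde4b, plus strand, chr4:102421305-102421554: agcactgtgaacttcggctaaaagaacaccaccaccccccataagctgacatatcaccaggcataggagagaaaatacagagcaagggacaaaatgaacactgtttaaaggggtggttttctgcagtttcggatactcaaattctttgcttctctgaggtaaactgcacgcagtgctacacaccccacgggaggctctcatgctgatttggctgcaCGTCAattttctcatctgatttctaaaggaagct
Pde4a, plus strand, chr9:21183851-21184100: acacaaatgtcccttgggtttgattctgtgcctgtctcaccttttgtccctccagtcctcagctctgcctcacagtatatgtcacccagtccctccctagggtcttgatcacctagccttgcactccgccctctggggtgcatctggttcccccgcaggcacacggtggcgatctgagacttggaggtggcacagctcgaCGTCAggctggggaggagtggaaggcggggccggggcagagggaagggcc
Pde4d, plus strand, chr13:108653927-108654176: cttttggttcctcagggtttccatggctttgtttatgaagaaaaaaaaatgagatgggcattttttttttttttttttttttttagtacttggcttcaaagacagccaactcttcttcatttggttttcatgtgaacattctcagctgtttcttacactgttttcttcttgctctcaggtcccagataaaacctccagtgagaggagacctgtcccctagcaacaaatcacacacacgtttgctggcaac
Pde7b, minus strand, chr10:20548329-20548578: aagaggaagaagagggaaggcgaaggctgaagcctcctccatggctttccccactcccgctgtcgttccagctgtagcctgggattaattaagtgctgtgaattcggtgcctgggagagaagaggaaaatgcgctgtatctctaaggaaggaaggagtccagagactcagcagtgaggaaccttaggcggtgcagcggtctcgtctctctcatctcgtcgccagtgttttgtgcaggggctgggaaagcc
The core began 34 bases before the transcript start in Pde4b and 50 bases before it in Pde4a. Each of these genes has further starts in the table, 4 in all for Pde4b and 3 for Pde4a, and the others lacked the core. Pde4d and Pde7b had 1 start each in the table, which lay inside the bounds of the gene given above. Any other start of these 2 genes was not searched. The libraries read transcripts near their 3′ end, so the counts do not tell which start was used.

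Levels are given in CPM, the unique molecular identifiers (UMIs) of a gene per 1000000 UMIs of the cells summed, and always in the order adenosine 1, adenosine 2, control 1 and control 2. The libraries held 32277757 to 68117846 UMIs, and the median cell 2992.5 to 4714 UMIs, with control 2 the lowest of the 4 in both. Cell types were assigned to each cell from marker genes other than the 6 phosphodiesterases; 875 cells stayed unassigned. Neutrophils, the short-lived granulocytes that arrive first at an injury, made up 67.0%, 53.6%, 68.7% and 71.8% of the cells. Control 2 stood apart from the other 3 libraries in its neutrophils. Immature neutrophils, those with more RNA for granule proteins such as Camp, Ngp and Ltf than for mature genes such as Cxcr2 and Csf3r, were 39.1%, 40.6%, 38.4% and 4.12% of neutrophils. The stages are ranges of this score rather than separate types, and 1417 of 20314 neutrophils lay within 1 log2 unit of the division between them. Control 2 also held few cells of several other types, among them 8 granulocyte-monocyte progenitors against 460, 369 and 275 in the other libraries. Any 2 libraries shared 10 to 24 cell barcodes. For several results that rest on control 2, the difference without it is also given below.

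The PDE4 genes differed in the cell types that carried them. Among gated types with at least 30 cells in a library, Pde4d was highest in basophils or mast cells, granule-bearing cells known for allergic responses, at 3447 CPM in adenosine 1, 1921 CPM in adenosine 2 and 2731 CPM in control 1. These values rest on 52, 47 and 50 cells; the 4 such cells of control 2 held 1 UMI of Pde4d. Granulocyte-monocyte progenitors, the precursors of neutrophils and monocytes, had 1055, 364 and 657 CPM in the 3 libraries with at least 50 such cells, and immature neutrophils 685, 437, 686 and 431 CPM. Mature neutrophils stood at the low end with 50.9, 18.0, 42.1 and 18.3 CPM. B cells were close to them with 47.6, 35.2, 91.0 and 27.1 CPM. Conventional dendritic cells, which take up and present antigen, lay between, at 424, 203, 446 and 291 CPM. There was no overlap between the libraries of immature and mature neutrophils, nor between those of conventional dendritic cells and B cells. Monocyte-macrophages varied most for Pde4d, with 138, 31.6, 73.8 and 243 CPM. The highest value there, in control 2, was above the 3 others.

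Pde4b was higher in B cells and mature neutrophils than in immature neutrophils and granulocyte-monocyte progenitors, the reverse of Pde4d, while conventional dendritic cells carried both. B cells had 309, 443, 392 and 380 CPM, conventional dendritic cells 324, 226, 248 and 306 CPM, and mature neutrophils 250, 295.5, 280.5 and 302 CPM. Immature neutrophils had 43.4, 31.9, 40.9 and 28.5 CPM, and granulocyte-monocyte progenitors 23.3, 21.9 and 17.2 CPM in the 3 libraries with at least 50 such cells. Every library of the first 3 types lay above every library of the last 2. Monocyte-macrophages (85.3, 115, 119 and 82.3 CPM) and T cells (92.0, 88.6 and 131 CPM in the libraries with at least 50 cells) filled the gap between them. Over the 35 sums of a library and a cell type with at least 50 cells, spanning 13 cell types, Pde4b and Pde4d had a Pearson correlation of −0.52 on the log2(CPM + 1) scale; sums of 1 library share its preparation and depth. Pde4a was low in most cells. Its lowest levels were in neutrophils, at 7.57, 3.33, 4.84 and 4.96 CPM in immature and 4.68, 2.71, 2.76 and 1.08 CPM in mature cells. Plasmacytoid dendritic cells, the interferon-producing dendritic cells, had 45.6, 56.4, 39.7 and 61.1 CPM, although only 42, 67, 52 and 16 cells were present. Pde4a and Pde4d had a correlation of 0.52, and Pde4a and Pde2a one of −0.61, over the same 35 sums.

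Pde7b RNA was a feature of monocyte-macrophages, mature neutrophils and basophils or mast cells. Monocyte-macrophages had 92.3, 260, 275 and 188.5 CPM and mature neutrophils 101, 45.8, 202 and 267 CPM, so the types overlapped in their levels. Basophils or mast cells had 377, 284 and 332 CPM in the first 3 libraries. In B, T and natural killer cells the gene was low. B cells had 21.1, 9.31, 15.6 and 8.14 CPM, the last from 3 UMIs, and T cells 12.8, 0.969, 9.30 and 8.32 CPM. The 152 natural killer cells held no UMI of Pde7b among 948158 UMIs, which at a limit of 3 counts allows up to 3.16 CPM. Pde3b, unlike Pde7b, was high in these lymphocytes. Basophils or mast cells carried both genes, with 315 to 329 CPM of Pde3b in the libraries with at least 50 such cells. Over the 35 sums, Pde3b and Pde7b had a correlation of 0.05. Among gated types with at least 30 cells in a library, Pde3b was highest in natural killer cells, with 547, 351 and 703 CPM in the first 3 libraries. It was also high in T cells, with 474, 224, 438 and 404 CPM (37 T cells in control 2). B cells had 240, 140, 326 and 165.5 CPM, while immature neutrophils had 58.0, 36.3, 58.3 and 21.1 CPM. Pde2a was carried by neutrophils and by part of the lymphocytes, and was nearly missing from dendritic cells. T cells ranged from 15.7 to 163 CPM over the libraries with at least 50 such cells. The lowest of them was adenosine 2, which held 1155 T cells. Immature neutrophils had 287, 178, 210.5 and 117 CPM, B cells 72.6, 68.6, 266 and 76.0 CPM, monocyte-macrophages 28.0, 13.8, 37.1 and 9.90 CPM, and conventional dendritic cells 2.93, 3.47, 8.12 and 1.94 CPM. Conventional dendritic cells lay below every other of these types in each library. Over libraries with at least 50 cells, other types were about as low in Pde2a. Plasma cells averaged 4.84 CPM, basophils or mast cells 5.29 CPM and erythroid cells 6.14 CPM. Plasmacytoid dendritic cells averaged 10.4 CPM.

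**Figure D1:**
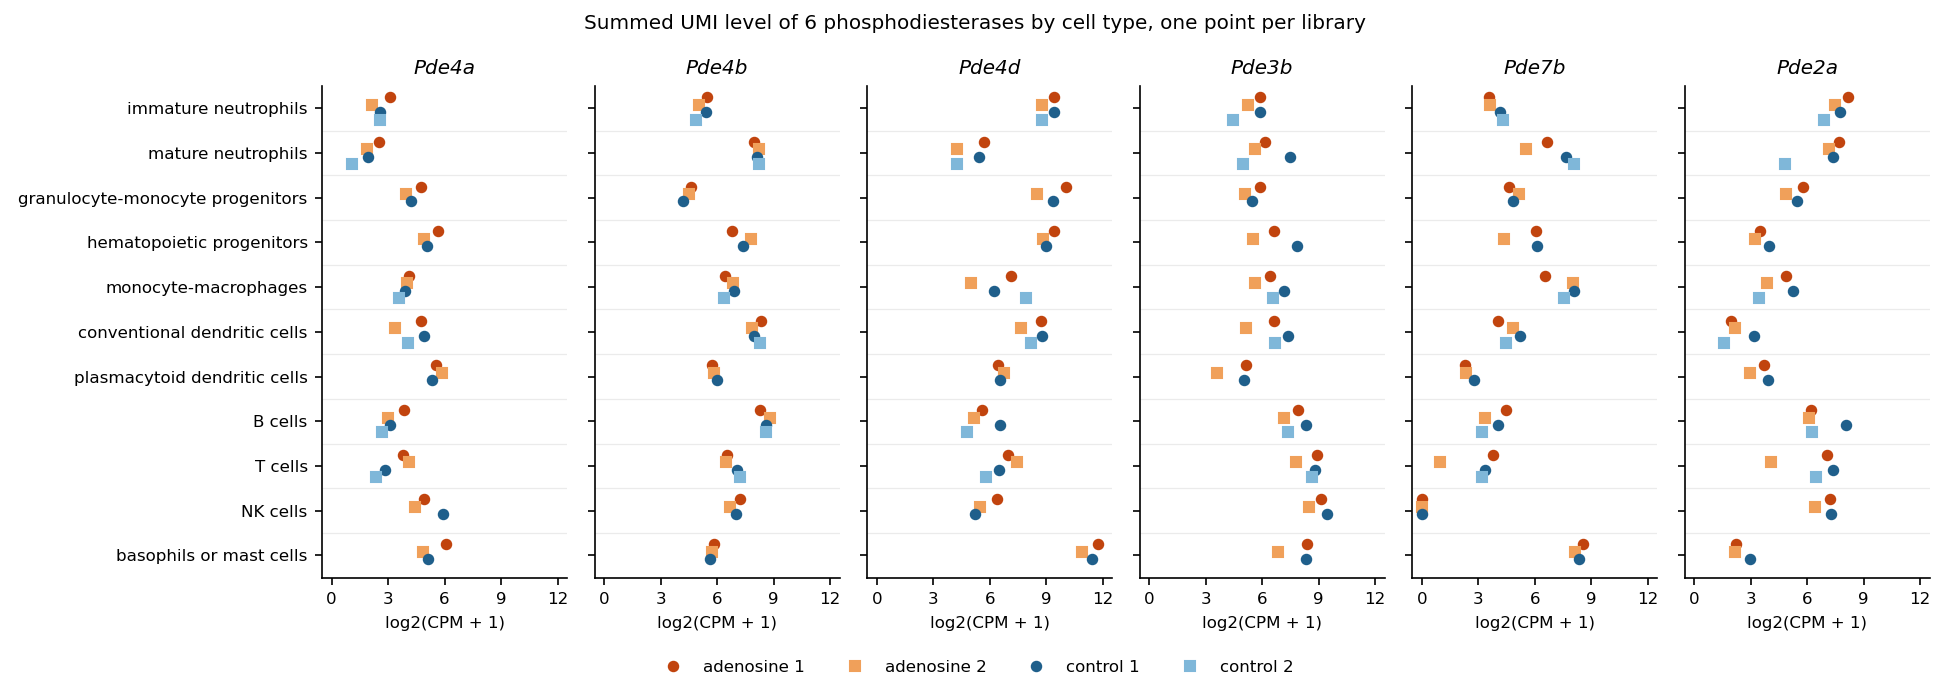
Level of each phosphodiesterase as log2(CPM + 1) in 11 cell types, with 1 point for each library that held at least 30 cells of the type. In every library plotted, Pde4d is higher and Pde4b lower in immature neutrophils and granulocyte-monocyte progenitors than in mature neutrophils and B cells, and Pde7b is at 0 in natural killer cells.

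RNA released from broken neutrophils can add UMIs to other cells. The neutrophil genes S100a8 and S100a9 were used to estimate that share, which predicted at most 8.01 CPM of any of the 6 genes in monocyte-macrophages, conventional dendritic cells or B cells. Pde4d in monocyte-macrophages, for instance, was predicted at 8.01, 2.42, 5.22 and 1.08 CPM from this source. The level of Pde7b in the B cells of control 2 (8.14 CPM, with 6.68 CPM predicted) was close to its prediction and is read as background. Granulocyte-monocyte progenitors make some S100a8 and S100a9 themselves, and there the Pde4b prediction of 19.6, 18.9 and 22.1 CPM reached the measured 23.3, 21.9 and 17.2 CPM, so the Pde4b level of progenitors is an upper limit.

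Differences between cell types were tested with the edgeR quasi-likelihood test on 26 sums, 7 cell types with at least 50 cells in 3 or more libraries, with the library as a block. Of the 126 comparisons of a gene between a pair of types (21 pairs), 90 passed an adjusted p of 0.05, and 81 of these passed in the same direction when the scaling was by library size alone. The standard scaling (TMM) centred the genes of neutrophils higher against the other types, by 0.60 to 1.07 log2 units at the median gene, so comparisons of neutrophils with other types are given only where both scalings called them. Over all genes 52.9% of such comparisons were called, so a called difference is common here; the share of all 14266 genes called is given below for each pair named. Among the 7 types, Pde4a had no called step between neighbours in its order of levels. For Pde4b the called steps between neighbours were those from conventional dendritic cells to T cells (log2 difference 1.48, SE 0.21, adjusted p = 6.39e-06; 34.6% of genes), from monocyte-macrophages to immature neutrophils (0.79, SE 0.18, adjusted p = 0.000730; 56.4% of genes) and from immature neutrophils to progenitors (1.44, SE 0.21, adjusted p = 3.61e-06; 58.1% of genes). B cells and mature neutrophils could not be ordered for Pde4b: B cells differed from mature neutrophils by −0.65 under TMM (adjusted p = 0.00250) and by 0.43 under library size alone (adjusted p = 0.0321), with 71.7% of genes called under TMM. For Pde4d, among neighbours, the step from monocyte-macrophages to B cells was called under both scalings (1.37, SE 0.49, adjusted p = 0.0224; 50.3% of genes). Pde3b stepped down from B cells to conventional dendritic cells (1.06, SE 0.32, adjusted p = 0.0112; 37.8% of genes) and from mature neutrophils to progenitors (1.56, SE 0.34, adjusted p = 0.000295). Pde7b was 2.95 log2 units higher in mature neutrophils than in progenitors (SE 0.51, adjusted p = 2.03e-05), where 72% of genes were called. Pde2a was 2.58 units higher in monocyte-macrophages than in conventional dendritic cells (SE 0.62, adjusted p = 0.00319; 25.2% of genes). All other neighbours in the orders were not called under both scalings.

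Within the neutrophil lineage the phosphodiesterases changed over with maturation. Pde4d was higher, and Pde4b and Pde7b were lower, in immature than in mature neutrophils. The level of Pde4d averaged 560 ± 145 CPM in immature and 32.3 ± 16.7 CPM in mature neutrophils (SD, n = 4 libraries), and the edgeR test gave a log2 difference, immature over mature, of 4.00 (SE 0.49, adjusted p = 7.51e-07). Pde4b averaged 36.2 ± 7.11 CPM in immature and 282 ± 23.0 CPM in mature neutrophils (log2 difference −3.14, SE 0.19, adjusted p = 4.42e-11). Pde7b averaged 14.3 ± 4.00 CPM in immature and 154 ± 99.2 CPM in mature neutrophils (−3.53, SE 0.46, adjusted p = 1.60e-06). The direction of each was seen in 4 of 4 libraries, and the stages did not overlap. Of all genes tested, 51% were called between the stages, 25.7% higher and 25.3% lower in immature cells, and the median gene differed by −0.06; library size alone placed the median 0.17 higher and called the same direction for all 3 genes.

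The other 3 genes changed less between the stages. Pde3b had 58.0, 36.3, 58.3 and 21.1 CPM in immature and 70.7, 47.6, 175 and 30.2 CPM in mature neutrophils, lower in the immature cells of every library (−0.89, SE 0.30, adjusted p = 0.0176). Without control 1, whose mature neutrophils held the highest value, the difference was −0.51 (SE 0.33, adjusted p = 0.242). Pde2a had 287, 178, 210.5 and 117 CPM in immature and 207, 144, 163 and 27.6 CPM in mature neutrophils (0.54, SE 0.37, adjusted p = 0.240). Pde4a, for which immature cells held 8 to 82 UMIs a library, did not pass the test (0.70, SE 0.32, adjusted p = 0.0769). It passed when stages were taken from clusters (1.06, SE 0.25, adjusted p = 0.00100) and when the scaling was by library size alone (0.87, adjusted p = 0.0205).

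**Figure D2:**
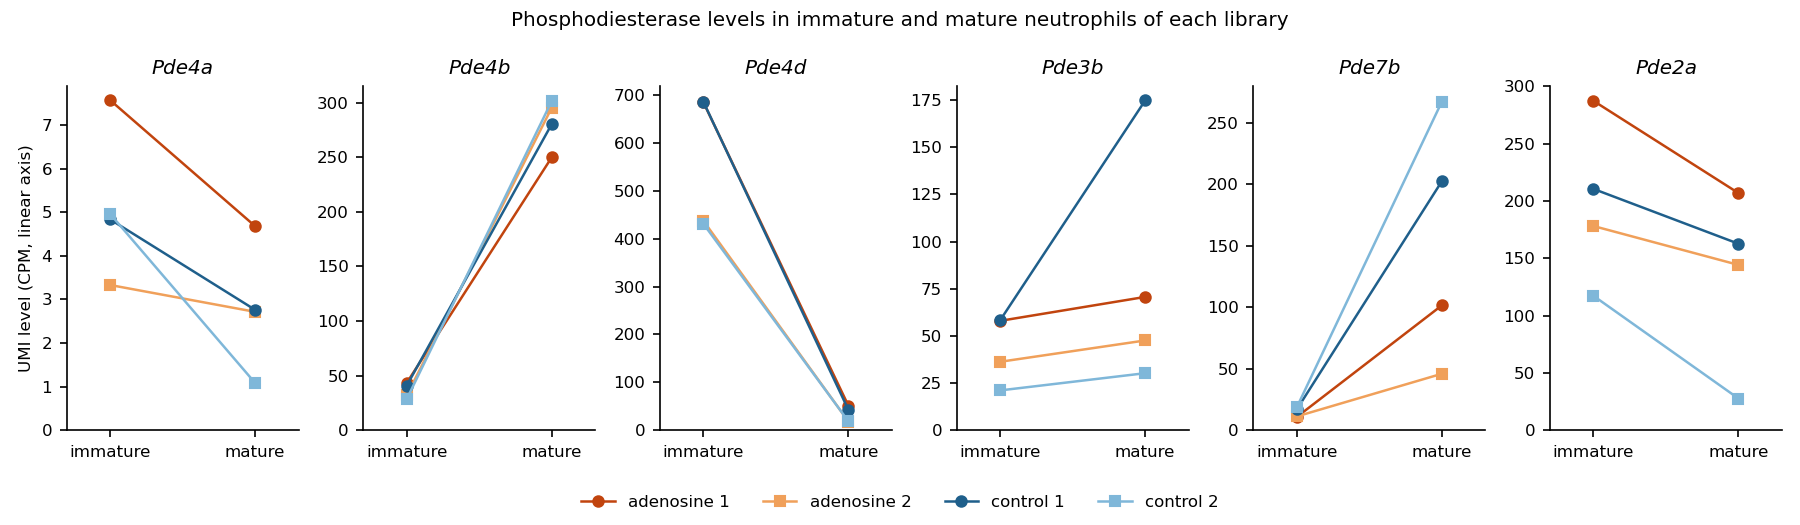
Level of each phosphodiesterase (CPM, linear axis from 0, a separate scale for each gene) in immature and mature neutrophils, with 1 line for each library. In all 4 libraries Pde4d is higher and Pde4b and Pde7b are lower in immature than in mature neutrophils.

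Immature neutrophils were the more deeply read cells, with a median of 4304, 5395, 4769 and 7738 UMIs, against 2293, 2269.5, 2338 and 2701 UMIs in mature neutrophils. Shares of cells with a UMI were therefore also taken after thinning every cell to 1500 UMIs, leaving out 1 to 70 immature and 137 to 512 mature cells of a library that held fewer. At this depth Pde4d was found in 44.8%, 35.5%, 47.5% and 33.5% of immature neutrophils, against 3.79%, 2.21%, 4.20% and 1.98% of mature neutrophils. Unthinned, the shares were 64.1%, 61.7%, 68.2% and 59.7% of immature and 5.41%, 3.33%, 6.24% and 3.44% of mature cells. B cells, with a median depth of 3826 to 4373 UMIs, gave 5.36%, 3.27%, 6.90% and 4.42% for Pde4d after thinning, so the share in mature neutrophils lay below that of B cells in each library. Neutrophils make S100a8 and S100a9 themselves, so the free RNA estimate does not apply to them and no background was set for this share. Pde4b was found in 6.82%, 5.18%, 6.10% and 5.14% of thinned immature cells, against 26.3%, 28.7%, 30.4% and 26.6% of thinned mature cells. Its share in granulocyte-monocyte progenitors, 3.40%, 3.21% and 2.65%, was the low mark. Pde7b was found in 1.63%, 1.74%, 2.80% and 2.82% of immature cells, against 10.5%, 4.79%, 21.2% and 21.5% of mature cells; B cells gave 1.23%, 1.37%, 2.02% and 1.08% at this depth. Pde2a, by contrast, was found in both stages, in 36.7%, 25.5%, 28.4% and 16.5% of immature and 25.5%, 18.3%, 20.2% and 3.51% of mature cells. The mature cells of control 2 were the low point for Pde2a.

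The steps of the changeover can be followed over the neutrophil clusters, which were formed without the 6 genes. A cluster led by the primary and secondary granule genes Fcnb, Chil3, Camp and Ngp (cluster 8) had the most Pde4d, at 987, 562, 913 and 616 CPM. The cluster led by Ltf and Ly6g (cluster 1) had 681, 469, 728 and 498 CPM, and that led by the granule proteases Mmp8 and Mmp9 (cluster 4) 112, 108, 152 and 104 CPM. In that last cluster Pde2a was at 351, 203, 250.5 and 152 CPM and Pde4b at 65.5, 53.9, 73.6 and 50.2 CPM. Among mature neutrophils, the cluster led by Retnlg (cluster 0) had 149, 127, 166 and 77.3 CPM of Pde4b. The cluster led by Cd101 and Csf3r (cluster 2) had 494, 597, 468 and 495 CPM of Pde4b and 224, 70.8, 279 and 144 CPM of Pde7b. Within each library, Pde4d was lower in cluster 4 than in cluster 1 and lower in cluster 1 than in cluster 8, and Pde4b ran in the opposite order over these clusters. These clusters were formed from the same cells, so their values are a description.

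Other genes of the cAMP pathway were called between the stages about as often as all genes, of which 25.7% were higher and 25.3% lower in immature cells, so the counts that follow are a description. Of 12 other phosphodiesterases tested, among 18 listed, 5 were higher and 2 lower in immature neutrophils. Pde1a, a calcium- and calmodulin-dependent enzyme, was lower (log2 difference −4.96, SE 0.43, adjusted p = 4.56e-09), and Pde10a, which hydrolyses cAMP and cyclic GMP, was higher (3.35, SE 0.79, adjusted p = 0.00107). Pde6d, whose product carries prenylated proteins, was higher (1.25, SE 0.20, adjusted p = 1.60e-05). Of 10 adenylyl cyclases and G protein subunits tested, 2 were higher and 1 lower; the lower one was Gnal, a stimulatory G protein subunit (−1.21, SE 0.35, adjusted p = 0.00648). Of 8 receptors coupled to cAMP, 1 was higher and 3 lower. Among the lower ones were the prostaglandin E receptor Ptger2 (−1.60, SE 0.24, adjusted p = 8.49e-06) and the adenosine receptor Adora2b (−1.89, SE 0.43, adjusted p = 0.00100). Adora2b was scarce at both stages, with 0.74, 0.09, 0.48 and 0 CPM in immature and 1.56, 0.96, 1.49 and 1.85 CPM in mature neutrophils. Of 16 cAMP effectors, 2 were higher and 4 lower, among the lower ones the cAMP-responsive transcription factors Crem (−1.31, SE 0.30, adjusted p = 0.000990) and Atf1 (−0.94, SE 0.16, adjusted p = 3.98e-05). Of 16 anchors that hold kinases or phosphodiesterases in place, 4 were higher and 5 lower. Rack1, a scaffold that binds PDE4D5 (0.90, SE 0.21, adjusted p = 0.00101), was higher. Disc1, a scaffold that binds PDE4 enzymes (−1.27, SE 0.45, adjusted p = 0.0221), and its partner Ndel1 (−2.14, SE 0.15, adjusted p = 2.37e-10) were lower. Pde10a, Gnal and Disc1 were scarce too, at no more than 4.96 CPM in any library of either stage. The list medians were 0.73, 0.29, −0.84, −0.17 and −0.33 for phosphodiesterases, cyclases and G proteins, receptors, effectors and anchors, beside −0.06 over all genes. The immature stage also carried the dividing cells, with all 8 cell cycle genes higher (median 3.86), and 9 of 10 genes of activated neutrophils were lower (median −5.03).

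The study asked what adenosine in the microgel changes in the callus, and the 6 genes were read in that comparison in the sum of all cells and in each cell type with at least 50 cells in every library. None of the 6 passed the edgeR test in any of the 7 sums (all cells, neutrophils, their 2 stages, monocyte-macrophages, B cells and conventional dendritic cells), and 0% of all genes did. At an unadjusted p under 0.05 stood 420 of 16368 genes in all cells, 321 of 12225 in neutrophils and 244 of 12574 in monocyte-macrophages. The largest differences belonged to Pde7b, which was lower in the adenosine libraries in neutrophils and in each of their stages. In the sum of all cells Pde4d had 25383, 11773, 16362 and 4375 UMIs, Pde4b 5404, 6960, 6763 and 5656 UMIs, and Pde7b 2868, 4752, 7191 and 5847 UMIs. In that sum fewer cells of a type and less RNA per cell cannot be told apart. Pde4b (104 and 120 CPM with adenosine, 136 and 193 CPM in controls) and Pde7b (55.3 and 81.9 CPM with adenosine, 145 and 199 CPM in controls; log2 difference −1.52, SE 0.42, unadjusted p = 0.0158, adjusted p = 0.873) lay below both controls in each adenosine library, as did 9.82% of all genes. Without control 2 the difference in all cells was −0.35 for Pde4b and −1.14 for Pde7b. Pde4a (16.3 and 11.8 CPM with adenosine, 10.9 and 6.14 CPM in controls) lay above both controls, as did 26.8% of all genes. Under library size alone the median gene of all cells lay 0.17 log2 units higher than under TMM.

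Pde7b in neutrophils had 50.1 and 23.7 CPM in the adenosine libraries, against 96.1 and 239 CPM in the controls. The log2 difference was −2.50 (SE 0.68, unadjusted p = 0.0128, adjusted p = 0.855). In mature neutrophils, which hold most of this RNA, the levels were 101 and 45.8 CPM with adenosine and 202 and 267 CPM in controls (−1.83, SE 0.46, unadjusted p = 0.00991, adjusted p = 0.903). In immature neutrophils they were 10.7 and 11.2 CPM with adenosine and 16.9 and 18.6 CPM in controls (−0.78, SE 0.30, unadjusted p = 0.0326, adjusted p = 1.00). Both adenosine libraries lay below both controls at each stage, where 10.3% of genes in neutrophils, 14.5% in mature and 6.46% in immature neutrophils did the same. The call depended on the procedure. DESeq2 called Pde7b in neutrophils (−2.46, adjusted p = 0.0275), where it called 144 of 20832 genes. Without the filter on low counts, edgeR called Pde7b in neutrophils (−2.44, adjusted p = 0.000168), among 609 of 20832 genes. That setting also called it in mature neutrophils (−1.81, adjusted p = 0.00759), among 465 of 19455 genes. With control 1 left out, so that control 2 alone stood for the controls, edgeR gave −3.09 in neutrophils and −2.11 in mature neutrophils. Without control 2 the differences were −1.42 in neutrophils and −1.46 in mature neutrophils, and neither was called.

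Inside the single clusters compared, the groups mostly overlapped in Pde7b. Only neutrophil clusters with at least 20 cells in every library were compared, a number set after the data were seen. This left out cluster 5, of 2253 mostly mature neutrophils. It had the highest Pde7b of the neutrophil clusters, 329 CPM over all its cells. In the 8 clusters kept, both adenosine libraries lay below both controls in 2, and the groups overlapped in 6. For such orders of libraries inside clusters, the share of all genes was not counted. The first of the 2 was cluster 3, led by the chemokine genes Cxcl2, Ccl3 and Ccl4, with 97.7 and 17.7 CPM in the adenosine libraries and 172 and 255 CPM in the controls. It held 125 and 23 cells with adenosine and 80 and 2164 cells in controls. With 23 cells, the 17.7 CPM of adenosine 2 rests on very few UMIs. The other was cluster 8, at the immature end, with 3.56 and 4.62 CPM with adenosine and 7.65 and 19.0 CPM in controls. In the Retnlg cluster 0, by contrast, control 2 had 50.2 CPM of Pde7b, below the 53.4 CPM of adenosine 1 and above the 26.3 CPM of adenosine 2, while control 1 had 158 CPM. In the Cd101 cluster 2 control 2 had 144 CPM, again between the 224 and 70.8 CPM of the adenosine libraries. Control 1 was higher than both adenosine libraries in 7 of the 8 clusters, cluster 1 being the exception with 9.33 CPM, against 10.7 and 8.18 CPM with adenosine.

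For Pde4b and Pde4d, control 2 stood apart from the other libraries in whole neutrophils. The part of its stage makeup in these values was not tested. Pde4b had 133 and 127 CPM in the adenosine libraries and 143 and 271 CPM in the controls (log2 difference −0.91, SE 0.52, unadjusted p = 0.134). Within a stage the values met: mature neutrophils had 250 and 295.5 CPM with adenosine and 280.5 and 302 CPM in controls (−0.18, SE 0.36), and immature neutrophils 43.4 and 31.9 CPM with adenosine and 40.9 and 28.5 CPM in controls (−0.03, SE 0.23). Inside the 8 neutrophil clusters compared, Pde4b overlapped between the groups in 7. In the chemokine cluster 3 it was higher with adenosine, at 788 and 441 CPM against 260 and 216 CPM in controls. Adenosine 2 held 23 cells there. Pde4d in neutrophils had 409 and 286 CPM with adenosine and 410.5 and 64.0 CPM in controls (0.49, SE 0.76). In immature neutrophils it had 685 and 437 CPM with adenosine and 686 and 431 CPM in controls (−0.13, SE 0.27), and in mature neutrophils 50.9 and 18.0 CPM with adenosine and 42.1 and 18.3 CPM in controls (0.09, SE 0.56). Immature cells supplied 94.6% and 97.7% of the neutrophil UMIs of Pde4d in the adenosine libraries, and 95.6% and 74.6% in the controls. Within each stage the level of Pde4d was high in both libraries numbered 1 and low in both numbered 2, so the libraries of 1 treatment lay further apart than the treatments. Without control 1, leaving control 2 alone, the difference in neutrophils was −1.40 for Pde4b and 2.07 for Pde4d. Without control 2 it was −0.12 for Pde4b and −0.25 for Pde4d. Pde4a had 6.31 and 3.11 CPM with adenosine and 3.95 and 1.51 CPM in controls in neutrophils (0.63, SE 0.60), and its difference was 0.89 (SE 0.62) in mature and 0.02 (SE 0.43) in immature neutrophils, none of them called.

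**Figure D3:**
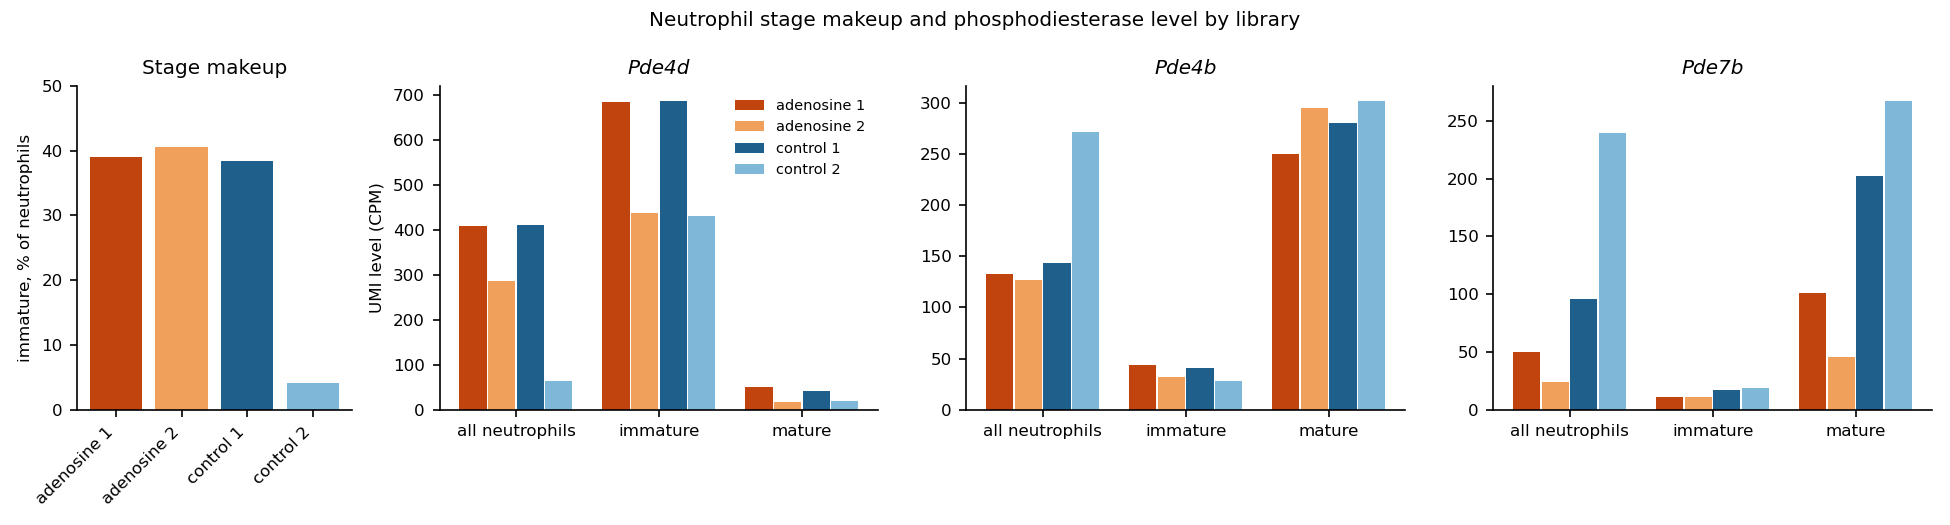
Left, immature cells as a percentage of neutrophils in each library; right, the level (CPM, bars from 0) of Pde4d, Pde4b and Pde7b in all neutrophils, immature neutrophils and mature neutrophils, with 1 bar for each library. Control 2 has 4.12% immature cells and stands apart in all neutrophils for Pde4d and Pde4b, but not within either stage, whereas Pde7b in mature neutrophils is at 101 and 45.8 CPM with adenosine and at 202 and 267 CPM in controls.

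Pde2a in neutrophils had 252 and 166 CPM with adenosine and 190 and 37.5 CPM in controls (0.80, SE 0.67). The low value of control 2 came with its mature cells, at 207 and 144 CPM with adenosine and 163 and 27.6 CPM in controls (0.87). Without control 2 the difference was 0.13 in neutrophils and 0.13 in mature neutrophils, and neither was called. With control 1 left out instead, so that control 2 alone stood for the controls, edgeR gave 2.11 in neutrophils and 2.45 in mature neutrophils. Of the cells of control 2, 2164 fell in the chemokine cluster 3, where Pde2a had 58.6 and 17.7 CPM with adenosine and 27.9 and 19.7 CPM in controls. In the Retnlg cluster 0 it had 275 and 213 CPM with adenosine and 222 and 146 CPM in controls. The part of stage and cluster makeup in the Pde2a values was not tested. Pde3b in mature neutrophils ranged widest among the controls, at 175 and 30.2 CPM, with 70.7 and 47.6 CPM with adenosine between them (−0.81); the difference was −1.54 without control 2 and 0.74 without control 1, not called in either case. Neither gene kept the groups apart in any of the 8 neutrophil clusters.

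In monocyte-macrophages, Pde3b had 85.6 and 49.0 CPM with adenosine and 139.5 and 92.6 CPM in controls (−0.89, SE 0.33, unadjusted p = 0.0407, adjusted p = 1.00). Pde4a had 16.2 and 14.7 CPM with adenosine and 13.9 and 10.9 CPM in controls (0.23). The groups did not overlap in either gene, as was so for 9.02% of genes on the lower and 16% on the higher side. Inside the 2 monocyte-macrophage clusters with at least 20 cells in each library, Pde3b overlapped between the groups in both. The first, led by Vcan, Plcb1 and Arhgef37 (cluster 6), had 66.0 and 37.1 CPM with adenosine and 136 and 33.6 CPM in controls. The other, led by Arg1, Pf4 and C1qb (cluster 11), had 123 and 82.9 CPM with adenosine and 247 and 98.0 CPM in controls. Pde4a lay above both controls in cluster 6, at 16.9 and 18.4 CPM with adenosine and 12.9 and 16.5 CPM in controls. In cluster 11 Pde4a overlapped, at 22.7 and 4.88 CPM with adenosine and 12.4 and 8.60 CPM in controls. Pde4d in monocyte-macrophages had 138 and 31.6 CPM with adenosine and 73.8 and 243 CPM in controls (−1.10, SE 0.86). It was higher in the Arg1 cluster, at 489 and 87.8 CPM with adenosine and 113 and 307 CPM in controls, than in the Vcan cluster, at 65.2 and 30.3 CPM with adenosine and 64.6 and 35.6 CPM in controls. Of the cells of control 2, 908 fell in the Arg1 cluster, against 141, 42 and 99 in the other libraries. The part of this makeup in the Pde4d level of monocyte-macrophages was not tested. Pde7b did not follow the neutrophils here (92.3 and 260 CPM with adenosine, 275 and 188.5 CPM in controls; −0.43, SE 0.57), but the difference between the cell types was not called (−1.64, SE 1.03, adjusted p = 0.910). That test, of the change in neutrophils less the change in monocyte-macrophages, called 0% of 13567 genes, with 242 at an unadjusted p under 0.05. Pde2a had the lowest p of the 6 in it (1.17, SE 0.34, unadjusted p = 0.0141, adjusted p = 0.910).

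In B cells, Pde2a had 72.6 and 68.6 CPM with adenosine and 266 and 76.0 CPM in controls (−1.33, SE 0.46, unadjusted p = 0.0161, adjusted p = 0.996). The groups did not overlap, as for 17% of genes. The gap rested on control 1: without it the difference was −0.22 (SE 0.45), and without control 2 it was −1.86. The B cell clusters differed in Pde2a, with 26.3 CPM in cluster 10 and 404 CPM in cluster 18. The part of their mix in the Pde2a difference was not tested. In conventional dendritic cells, Pde3b had 98.6 and 34.6 CPM with adenosine and 167 and 100 CPM in controls (−1.11, SE 0.51, unadjusted p = 0.0588), without overlap, as for 8.27% of genes. Each of these dendritic sums held 60 to 94 cells. The other values of the 6 genes in these 2 types overlapped between the groups, and Pde2a was too low in dendritic cells to be tested.

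**Figure D4:**
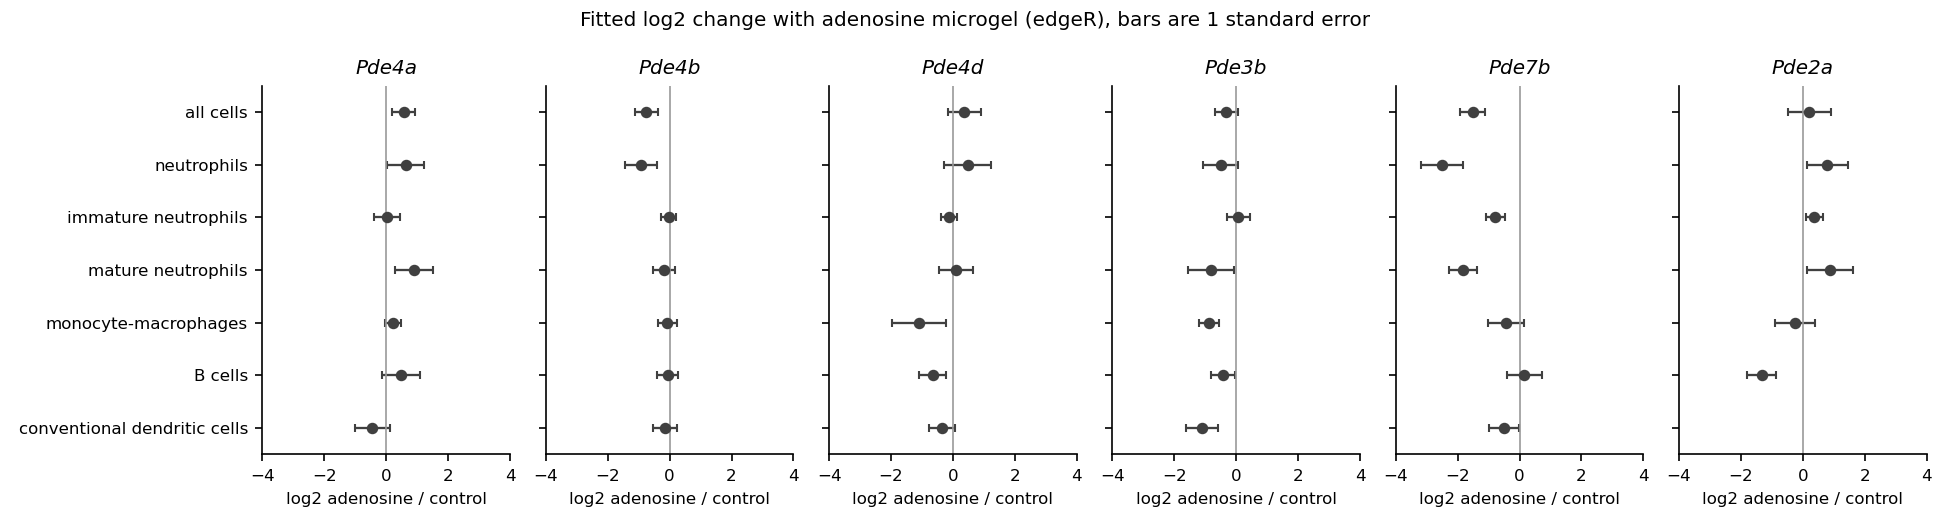
Fitted log2 difference, adenosine over control, of each phosphodiesterase in 7 sums of cells, with bars of 1 standard error (edgeR, 2 libraries a group). Pde7b lies below 0 by more than its standard error in all cells, neutrophils and both stages, Pde4b and Pde4d lie near 0 within the stages, and no point passed the adjusted threshold.

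The rest of the cAMP pathway gave 0 genes called by edgeR with adenosine in every list and cell type. In neutrophils, 6 of 9 other phosphodiesterases tested had a log2 difference above 0 (median 0.05), 4 of 10 cyclases and G proteins (−0.22), 6 of 14 effectors (−0.20), 3 of 6 receptors (−0.48) and 7 of 13 anchors (0.03), with a median of 0.03 over all genes, and none of these had an unadjusted p under 0.05. In monocyte-macrophages the counts above 0 were 4 of 9, 3 of 8, 4 of 15, 2 of 8 and 4 of 13 for the same lists. Several of the genes with the lowest p in these lists followed control 2. Pde1a in neutrophils had 5.95 and 4.66 CPM with adenosine and 5.85 and 50.03 CPM in controls (−2.73, unadjusted p = 0.0525). Crem had 21.4 and 16.8 CPM with adenosine and 22.7 and 100.0 CPM in controls (−1.99, unadjusted p = 0.0578). Ptger2 had 17.9 and 14.0 CPM with adenosine and 19.2 and 49.6 CPM in controls (−1.38), and Ndel1 251 and 195 CPM with adenosine and 247 and 527 CPM in controls (−1.06). In each of them control 1 lay beside the adenosine libraries and control 2 far above. Pde8a, a cAMP-specific enzyme, differed from them in monocyte-macrophages, where both controls were higher (39.3 and 23.0 CPM with adenosine, 49.96 and 69.9 CPM in controls; −1.07, unadjusted p = 0.0294). Genes of activated neutrophils were highest in control 2, with Ccl4 at 51.9 and 26.4 CPM with adenosine and 115 and 5163 CPM in controls, and all 10 had a difference below 0 (median −5.22). Cell cycle genes did the reverse, with Top2a at 180 and 184 CPM with adenosine and 148 and 29.8 CPM in controls, and all 8 were above 0 (median 0.92). The part of activation and of stage makeup in the values of the phosphodiesterases was not tested.

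The genes whose levels followed each phosphodiesterase most closely over the 35 sums of 13 cell types were named as a description. They were sought among 6792 genes with a mean of at least 20 CPM. For Pde4b they were Nfat5 (Pearson r 0.89), Chm (0.84) and Retreg1 (0.83), and for Pde4d Cntln (0.80), E2f8 (0.79) and Hipk2 (0.78). For Pde7b they were Ndrg1 (0.82), Wsb1 (0.81) and the chemokine gene Ccl6 (0.80), for Pde3b Rasa1 (0.83), Crbn (0.82) and the sphingosine phosphate receptor S1pr1 (0.81). For Pde4a they were Irak1 (0.86), Pank1 (0.85) and Ptprs (0.85), and for Pde2a Rflnb (0.82), Acpp (0.82) and Ano10 (0.81). Sums from 1 library and neighbouring cell types share cells of like composition, so these values describe the present samples only.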

How the data were processed

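The deposited matrices give UMI counts by gene and barcode, unnormalised whole numbers that the authors made with Cell Ranger 7.0.0 and bcl2fastq on build mm10, per the submitters' processing notes; the handling of intronic reads is not given in the sources used here. Libraries were 10x 3′ libraries, per the labels' protocols. Barcodes with fewer than 200 genes or at least 10% mitochondrial counts (1576) were removed, then the highest Scrublet scores at 0.8% per 1000 barcodes (2418; scanpy 1.11.5), leaving 31280 of 35274. A cell was assigned to the type with the largest share of markers above a Poisson quantile of 0.99 for free RNA (0.1 of each cell), with at least 2 markers for neutrophils and monocyte-macrophages and 3 for others; clusters (leidenalg 0.10.2, 2000 variable genes without the 6 genes, resolution 1) gave the same type for 93.6% of cells. Neutrophils were split at 0 of the log2 ratio of stage markers. Counts were summed per library and type and tested with the edgeR 4.0.16 quasi-likelihood test (R 4.3.3; filterByExpr, TMM, Benjamini-Hochberg over all genes, two-sided, threshold 0.05). DESeq2 1.42.0, other scalings, filters, cell types and left-out libraries were tried. The procedure was tested on simulated data. The genes named are the 6, the 3 closest in level to each, and from each list those with the lowest unadjusted p (4 in neutrophils, 2 in monocyte-macrophages); a few of these are printed. The 6 genes, the lists and the markers were chosen with earlier results of these data known. Intervals and limits cover counting error only. Lists: other phosphodiesterases, cyclases and G proteins, cAMP effectors, receptors coupled to cAMP, anchors, activated neutrophil genes and cell cycle. Promoters come from RefSeq (GRCm38.p6).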

Additional observations from a re-analysis of the deposited data

How the results depend on the processing

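The stage differences of Pde4b, Pde4d and Pde7b kept their direction and their call under library size alone, cluster-based types and each left-out library, and none of the 6 genes turned its direction between stages under these settings. The count of 90 called comparisons between cell types was 90 under library size alone, 91 with clusters and 77 to 92 with a library left out. The adenosine comparison was the weak one. Against 0 genes called by edgeR, DESeq2 called 23 in all cells, 144 in neutrophils, 5 in immature and 73 in mature neutrophils, 3 in monocyte-macrophages and 6 in B cells. Without the filter on low counts edgeR called 609 in neutrophils, 119 in immature and 465 in mature neutrophils, 175 in monocyte-macrophages, 98 in B cells and 76 in conventional dendritic cells. In immature neutrophils library size alone called 8 and clusters 1. Leaving out a library gave 0 to 4166 calls in neutrophils, 2 to 61 in immature and 0 to 1796 in mature neutrophils, 0 to 495 in monocyte-macrophages, 16 to 109 in B cells, 0 to 28 in conventional dendritic cells and 0 to 3310 for the difference between neutrophils and monocyte-macrophages. The count of 4166 is that without control 1, and without control 2 it was 1.

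Libraries that share a number are not said to share a batch, and their deviations from the group means correlated by −0.11 to 0.21 across genes. With the replicate number as a block, 3 genes were called in immature neutrophils and 0 in the other sums, and none of the 6 phosphodiesterases. The crossed pairing in all cells, added after the data were seen, called 0 genes, with 640 at an unadjusted p under 0.05 against 263 with the block and 420 without.

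Adenosine differences turned sign in some settings. These were small ones and also larger ones, such as Pde4d in monocyte-macrophages (−1.10) and Pde3b in mature neutrophils (−0.81). Clusters gave −0.0096 for Pde4a in immature neutrophils, −0.16 for Pde4d in mature neutrophils, 0.21 for Pde4b in monocyte-macrophages and 0.17 for Pde4a in conventional dendritic cells. Library size alone gave 0.090 for Pde4b and 0.0045 for Pde4d in immature neutrophils. Keeping all barcodes gave −0.22 for Pde7b in B cells and 0.041 in conventional dendritic cells. With a library left out, all cells gave −0.31 to 0.84 for Pde4d, −0.72 to 0.16 for Pde3b and −0.48 to 1.45 for Pde2a. Neutrophils gave −0.25 to 2.07 for Pde4d and −1.07 to 0.46 for Pde3b. Immature neutrophils gave −0.48 to 0.37 for Pde4a, −0.14 to 0.081 for Pde4b, −0.32 to 0.049 for Pde4d and −0.34 to 0.83 for Pde3b. Mature neutrophils gave −0.45 to 0.083 for Pde4b, −0.63 to 0.65 for Pde4d and −1.54 to 0.74 for Pde3b. Monocyte-macrophages gave −0.37 to 0.19 for Pde4b, −2.38 to 0.16 for Pde4d, −1.46 to 0.18 for Pde7b and −0.85 to 0.87 for Pde2a. B cells gave −0.39 to 0.23 for Pde4b, −1.10 to 0.48 for Pde4d, −0.77 to 0.071 for Pde3b and −0.41 to 0.73 for Pde7b. Conventional dendritic cells gave −1.31 to 0.077 for Pde4a, −0.38 to 0.14 for Pde4b and −0.92 to 0.084 for Pde4d. The difference between neutrophils and monocyte-macrophages ran from −1.49 to 0.20 for Pde4b and from −0.058 to 4.12 for Pde4d. Pde7b in neutrophils and in both stages kept its sign in every setting run. Apart from the left-out samples, the cause of these turns was not tested. Each group had 2 libraries, of which control 2 stood apart, and Pde4a and the dendritic cell sums rest on few UMIs.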

Other observations

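The highest Pde7b levels were found in a small cluster of cells that is given no name here. The marker lists placed it nearest to hematopoietic progenitors, with 5 markers raised, but only 8.3% of its cells were gated as such and none of the list's genes were among its 10 leading genes. It held 21 cells of adenosine 1, 25 of adenosine 2, 38 of control 1 and 0 of control 2, and was led by Pard3, Il1rl1, Gata3, Dach2 and Plxdc2, with Tnfsf11 and Ccr9 among its leading genes. Il1rl1 encodes the receptor for interleukin-33, and Gata3 a transcription factor of lymphoid development. The cells were grouped without the phosphodiesterases. Pde7b had 3061 and 1561 CPM in the adenosine libraries and 3448 CPM in control 1, with a UMI in 21 of 21, 22 of 25 and 37 of 38 cells. Pde3b had 971 and 540 CPM with adenosine and 754 CPM in control 1, and Pde4b 400.0 and 354 CPM with adenosine and 253 CPM in control 1. Pde4a had no UMI in these cells. The cluster was singled out after its Pde7b values were seen, and 84 cells of 3 libraries allow no test between the groups.

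Other small groups gave high Pde4d values. Mesenchymal cells of adenosine 1, of which 23 were present, had 2508 CPM, and erythroid cells had 710 CPM in adenosine 1 (85 cells) and 753 CPM in control 1 (20 cells). The level of Pde4d was higher in both libraries numbered 1 than in both numbered 2 in more than neutrophils. In conventional dendritic cells it was 424 CPM in adenosine 1 and 203 CPM in adenosine 2, and 446 CPM in control 1 and 291 CPM in control 2. In B cells it was 47.6 CPM in adenosine 1 and 35.2 CPM in adenosine 2, and 91.0 CPM in control 1 and 27.1 CPM in control 2. In T cells adenosine 1 (123 CPM) lay below adenosine 2 (172.5 CPM), so the order did not hold in all types. The labels do not say what the numbers mark, and the part of a batch in these levels was not tested.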
